A study of Mus musculus with 12 samples.

Results

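The genes described here are the nuclear genes of respiratory complexes I, II, III and V in the mouse aorta, read by single-cell RNA sequencing. They were taken by symbol, as every gene whose name starts with Nduf followed by a, b, c, s or v and a digit, with Uqcr or with Atp5, or is Sdha, Sdhb, Sdhc or Sdhd. This gave 67 of the 32245 gene symbols in the count tables, of which 38 belong to complex I, 4 to complex II, 8 to complex III and 17 to complex V by their symbols. The values of the genes played no part in the choice. Ndufa4 and Ndufa4l2 are counted under complex I by their symbols, although Ndufa4 is known as a subunit of complex IV, and Ndufb1-ps carries a symbol of the pseudogene kind. Ndufab1 and Cyc1, which also encode subunits, fall outside the symbols and are given apart.

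The study asked whether methazolamide (MTZ), a carbonic anhydrase inhibitor that the sample labels write as methoxazolamide, acts on atherosclerosis. Male C57BL/6J mice labelled ApoE-/-, which lack apolipoprotein E and develop lesions of the aorta, entered in 4 groups of 18 at 8 weeks of age and were fed for 24 weeks. Normal food and saline were given to the group labelled Healthy. The other groups ate food holding 1% cholesterol and 10% fat, and received either saline (AS), MTZ by gavage at 25 mg/kg every other day during the last 12 weeks (MTZ-treated), or that dose throughout the 24 weeks (MTZ-preventive). From each group 6 aortas were pooled into 1 gene expression library, so that the conditions have no replicate and no difference between them was tested. Apoe was at 678 CPM (unique molecular identifiers, UMIs, scaled to a total of 1e+06) in the library labelled Healthy, against 11.4 CPM in AS, 12.9 CPM in MTZ-treated and 8.49 CPM in MTZ-preventive. That level goes against the genotype in the label, and every comparison with the library labelled Healthy is also a comparison of libraries that differ in Apoe. Unless stated otherwise, 4 values in a row below follow the order labelled Healthy, AS, MTZ-treated, MTZ-preventive.

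Respiratory complexes sit in the inner membrane of mitochondria. Complex I takes electrons from NADH, complex II takes them from succinate and is at the same time an enzyme of the tricarboxylic acid (TCA) cycle, complex III passes them on to cytochrome c, and complex V, the ATP synthase, uses the resulting proton gradient to make ATP. Complexes I, III, IV and V are built from subunits of both genomes, most of them nuclear, while complex II is wholly nuclear. Nuclear respiratory factor 1 (NRF1), ETS factors such as GABPA, YY1 and the estrogen-related receptors (ERR) are known to bind in the promoters of many of these genes. Arterial smooth muscle contracts and relies on both glycolysis and respiration, endothelial cells are known for their reliance on glycolysis, and brown adipocytes are known for dense mitochondria.

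Promoters are shown first because the genes are often described as sharing these regulators. All 67 genes matched a RefSeq gene and 56 had a promoter window of 300 bases in the RefSeq table (GRCm38.p6), running from 250 bases before the start of the gene to 50 bases after it. The NRF1 letters, GCGCA and any base and then GCGC, searched on both strands as the others were, stood in 16 of the 56 genes (28.6%), against 5.19% of all 27025 genes with a window and 11.0% of the 10264 such genes that were tested below. The ETS letters CCGGAAG stood in 14 genes (25%), against 9.93% of all and 19.3% of tested genes. The YY1 letters AAGATGG stood in 10 (17.9%), against 7.28% and 8.16%, and the ERR letters AAGGTCA in 8 (14.3%), against 5.38% and 3.91%. At least 1 of the 4 stood in 36 of the 56 genes (64.3%), against 24.5% of all genes and 36.0% of tested genes. The 4 sets of letters were searched separately, and a match describes the letters alone. Sequences of 8 genes named in the results below follow, and each of these genes holds a match in the bases shown. Other genes named below hold none of the 4 in their windows, among them Ndufa1, Ndufa4, Ndufc2, Ndufv3, Uqcr10, Uqcrfs1 and Atp5b. Sdhc, Ndufa4l2, Uqcrq and Ndufs1 have no window. Each sequence gives the 150 bases before the start of the gene, 5′ to 3′ on its strand, with matched letters of either strand in capitals. Sdha, the catalytic subunit of complex II, holds 3 NRF1 matches, Ndufa11, Sdhd, Atp5k and Atp5g2 hold an NRF1 match, Sdhd and Uqcr11 an ETS match, Atp5g3 an ERR match and Atp5j a YY1 and an ETS match. These are the matches within the bases shown, and the full windows of 300 bases also hold an NRF1 match for Atp5g3, an ERR match for Sdhd and ETS and ERR matches for Atp5k.
Sdha (chr13:74350241-74350390, minus strand): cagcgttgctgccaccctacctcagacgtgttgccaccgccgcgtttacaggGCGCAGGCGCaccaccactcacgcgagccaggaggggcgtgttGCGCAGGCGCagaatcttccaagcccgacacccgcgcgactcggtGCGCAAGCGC
Sdhd (chr9:50603850-50603999, minus strand): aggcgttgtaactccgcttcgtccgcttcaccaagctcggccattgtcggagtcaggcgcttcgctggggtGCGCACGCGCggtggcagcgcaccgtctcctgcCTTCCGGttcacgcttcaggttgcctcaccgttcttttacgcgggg
Ndufa11 (chr17:56717612-56717761, plus strand): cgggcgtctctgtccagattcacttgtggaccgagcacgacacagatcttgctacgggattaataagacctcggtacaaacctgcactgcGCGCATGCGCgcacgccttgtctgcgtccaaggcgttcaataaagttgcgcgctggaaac
Uqcr11 (chr10:80406822-80406971, minus strand): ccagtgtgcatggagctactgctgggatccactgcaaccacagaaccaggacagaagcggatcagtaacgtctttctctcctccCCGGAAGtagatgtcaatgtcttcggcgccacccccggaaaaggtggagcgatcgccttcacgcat
Atp5k (chr5:108434400-108434549, minus strand): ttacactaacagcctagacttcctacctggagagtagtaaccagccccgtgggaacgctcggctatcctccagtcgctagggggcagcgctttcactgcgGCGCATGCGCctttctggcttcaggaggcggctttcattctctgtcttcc
Atp5g2 (chr15:102671048-102671197, minus strand): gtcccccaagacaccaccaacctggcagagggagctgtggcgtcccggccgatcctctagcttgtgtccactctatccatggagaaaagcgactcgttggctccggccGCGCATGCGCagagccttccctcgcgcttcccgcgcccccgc
Atp5g3 (chr2:73911327-73911476, minus strand): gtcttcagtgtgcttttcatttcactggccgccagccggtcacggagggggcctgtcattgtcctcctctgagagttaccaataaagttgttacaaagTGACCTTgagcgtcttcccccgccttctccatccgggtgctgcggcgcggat
Atp5j (chr16:84834977-84835126, minus strand): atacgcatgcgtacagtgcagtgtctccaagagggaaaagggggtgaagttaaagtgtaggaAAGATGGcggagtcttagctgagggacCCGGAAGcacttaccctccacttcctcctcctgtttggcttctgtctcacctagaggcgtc

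Cells were assigned to classes by marker genes that are not among the 67, and class names below stand for cells carrying those markers. After the limits on genes, UMIs, mitochondrial and hemoglobin RNA and the removal of called doublets, 11121, 2160, 6796 and 14186 cells remained, with medians of 1937, 1297, 1539 and 1661.5 UMIs per cell. The gate placed 8169, 1182, 4515 and 8599 of them. Endothelial cells numbered 704, 367, 1285 and 1332, fibroblasts 1557, 304, 1812 and 3126, and smooth muscle cells 869, 108, 1067 and 1348, and these are called the wall classes. Cells with adipocyte markers numbered 11, 293, 18 and 890, B cells 2960, 4, 71 and 1043, and macrophages 25, 59, 98 and 2. The doublet call removed most macrophages, neutrophils and Schwann cells of MTZ-preventive. They numbered 64, 35 and 112 there with doublets kept, and 2, 0 and 19 after the call. The low numbers of these classes in that library thus depend on the call. A further 1517, 555, 1473 and 2926 cells carried markers of more than 1 class and were left out. Between 209 and 805 barcodes were shared by any 2 libraries, of which 24 to 233 were kept cells in both. Barcodes of all libraries are drawn from the same list, and the number shared by chance was not computed.

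The summed level of the 67 genes was highest in adipocyte-marker and smooth muscle cells and lowest in B cells and neutrophils. Smooth muscle cells had 22128, 26491, 31876 and 21401 CPM, or 25474 ± 4824 CPM (SD, n = 4 libraries). Endothelial cells had 16043, 18884, 21078 and 15065 CPM (17768 ± 2738, n = 4), and fibroblasts 15638, 17946, 20585 and 15846 CPM (17504 ± 2304, n = 4). The ranges of endothelial cells and fibroblasts overlapped almost wholly, while the lowest smooth muscle library lay above every endothelial and fibroblast library. Adipocyte-marker cells had 32555 CPM in AS and 24606 in MTZ-preventive, the libraries that hold at least 20 of them. Macrophages had 13627, 18812 and 21331 CPM in the library labelled Healthy, AS and MTZ-treated. B cells had 8801, 12593 and 9706 CPM in the library labelled Healthy, MTZ-treated and MTZ-preventive (10367 ± 1980, n = 3), and T cells 10798, 17061 and 10544 CPM. In these libraries ribosomal protein RNA made up 28.6% to 33.3% of B cell UMIs and 30.8% to 37.4% of T cell UMIs. In the wall classes it made up 9.94% to 19.0%. It counts in the total that CPM is scaled to, and its part in the low lymphocyte levels was not tested. The 36 neutrophils of the AS library had 8519 CPM, and Schwann cells 16375 and 24160.2 CPM in the library labelled Healthy and MTZ-treated.

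**Figure D1:**
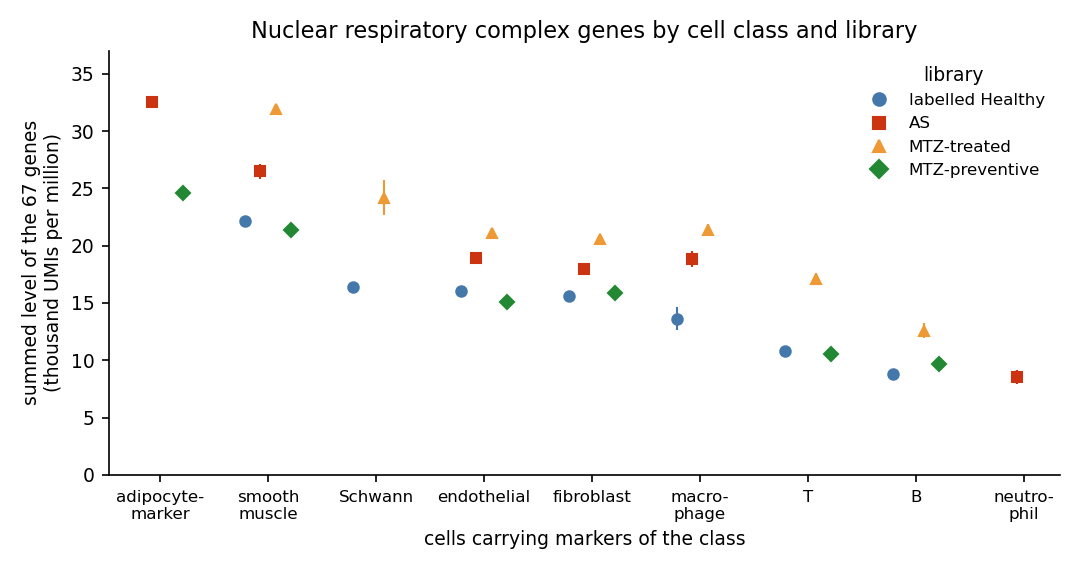
Summed level of the 67 genes (units of 1000 CPM, linear axis) in each class of cells, with a symbol for each library and 95% exact Poisson intervals that cover counting error only. Adipocyte-marker and smooth muscle cells stand highest and B cells, T cells and neutrophils lowest, and within each wall class the MTZ-treated library is highest.

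Within each library the smooth muscle level was 1.38, 1.40, 1.51 and 1.42 times the endothelial level and 1.42, 1.48, 1.55 and 1.35 times the fibroblast level. Of the 67 genes, 59, 59, 63 and 63 were highest in smooth muscle among the wall classes in these libraries. In all 4 libraries alike 56 of the 67 were highest there, against 12.4% of the 13213 genes tested. For 22 of the 67, every smooth muscle value lay above all 8 endothelial and fibroblast values, against 6.76% of all genes tested. Smooth muscle cells were also the deepest wall class in each library, with medians of 4019, 1520, 2082 and 2444.5 UMIs against 1305.5 to 2963.5 in endothelial cells and fibroblasts, and they carried a mitochondrial share of 2.67% to 3.99% of UMIs, against 1.34% to 2.90%. Among cells under 2000 UMIs alone, smooth muscle was still the highest wall class in each library, with 15659.7 CPM against 13811 and 13979 labelled Healthy and 28994 against 20253 and 19666 in MTZ-treated.

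Smooth muscle cells were then compared with the mean of endothelial cells and fibroblasts over the 4 libraries. Of the 67 genes, 50 were higher in smooth muscle and none lower in edgeR's quasi-likelihood test at an adjusted p under 0.05, where 18.1% of all genes tested were higher and 18.2% lower. DESeq2 likewise called none lower, and none was lower at an unadjusted p under 0.05. The higher genes were 29 of 38 in complex I, 3 of 4 in complex II, 6 of 8 in complex III and 12 of 17 in complex V. The median log2 fold change was 0.58 over the 67 genes and −0.02 over all genes tested, and by complex it was 0.71, 0.53, 0.58 and 0.47. The p-values rest on the spread of class differences among 4 libraries that also differ in condition. In cells under 2000 UMIs 23 of the 67 genes were called higher, with a median of 0.35, against 705 of all 8852 genes tested. Without the MTZ-preventive library 32 were called higher, against 1250 of all 10480 genes tested.

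Sdhc, a membrane anchor of complex II, had the highest fold change after Ndufa4l2. Its level in smooth muscle cells was 117, 133, 96.3 and 103 CPM, against 45.5 to 53.3 CPM in endothelial cells and 40.6 to 45.3 CPM in fibroblasts, with no overlap. The log2 fold change was 1.24 ± 0.13 (SE, edgeR adjusted p = 1.26e-09). The other subunits of complex II moved less, at 0.54 ± 0.14 for the catalytic Sdha (edgeR adjusted p = 0.0018), 0.52 ± 0.17 for the iron-sulfur subunit Sdhb (adjusted p = 0.0165) and 0.31 ± 0.14 for the second anchor Sdhd, which did not pass (adjusted p = 0.0792).

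In complex I, Ndufs1, the core subunit that carries several iron-sulfur clusters, was at 41.0, 30.1, 35.2 and 38.7 CPM in smooth muscle cells and at 18.3 to 22.9 CPM in the other wall classes, again without overlap (log2 fold change 0.95 ± 0.17, edgeR adjusted p = 2.19e-05). The AS value comes from 108 cells with 232906 UMIs in all, so it rests on few UMIs of Ndufs1. Ndufa11, a membrane accessory subunit, was at 454, 408, 691 and 456 CPM in smooth muscle, at 248 to 418 CPM in fibroblasts and at 169 to 258 CPM in endothelial cells, with a log2 fold change of 1.03 ± 0.17 (adjusted p = 9.68e-06). Its AS value in smooth muscle lay below its MTZ-treated value in fibroblasts. Ndufc2, an accessory subunit of the membrane arm, had the lowest fold change of the 67, −0.20 ± 0.17 (adjusted p = 0.389).

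In complex V, Atp5k, which encodes the small subunit e, was at 139, 189, 166 and 73.5 CPM in smooth muscle cells against 42.0 to 92.8 CPM elsewhere in the wall (log2 fold change 0.95 ± 0.14, edgeR adjusted p = 1.38e-06), and its MTZ-preventive value overlapped with the other classes. Atp5b, the catalytic beta subunit, was higher in smooth muscle by 0.73 ± 0.17 (adjusted p = 0.000754). In complex III the core subunits Uqcrc1 (0.66 ± 0.16, edgeR adjusted p = 0.00106) and Uqcrc2 (0.57 ± 0.16, adjusted p = 0.00381) were higher, whereas Uqcrfs1, the Rieske iron-sulfur protein, was at 0.29 ± 0.17 and did not pass (adjusted p = 0.187).

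Endothelial cells stood below the mean of smooth muscle cells and fibroblasts, with 34 of the 67 genes lower and 1 higher by edgeR, against 20.3% of all genes lower and 19% higher. The lower genes were 24 of 38 in complex I, 1 of 4 in complex II, 2 of 8 in complex III and 7 of 17 in complex V, and the median log2 fold change was −0.42 over the 67 and −0.03 over all genes. Ndufc2 was the exception, at 352, 506, 331 and 300.2 CPM in endothelial cells, against 163 to 238 CPM in fibroblasts and 192 to 287 CPM in smooth muscle (log2 fold change 0.66 ± 0.16, adjusted p = 0.00107). Every endothelial value of Ndufc2 lay above every value of the other wall classes. Ndufa13, a complex I accessory subunit, was at 307 to 509 CPM in endothelial cells, 472 to 782 CPM in fibroblasts and 562 to 1053 CPM in smooth muscle (−0.94 ± 0.16, edgeR adjusted p = 6.04e-06). Ndufa11 fell by 1.08 (SE 0.19, adjusted p = 1.18e-05), Ndufv3 by 0.94 (SE 0.15, adjusted p = 4e-06) and Ndufb2 by 0.79 (SE 0.17, adjusted p = 0.000174) on the log2 scale. The count of lower genes depended on the fit, with 54 under DESeq2, 17 without the library block, 14 without the MTZ-preventive library and 21 in cells under 2000 UMIs. Of all genes tested, 2920 of 13213, 2048 of 13213, 1504 of 10480 and 1137 of 8852 were lower in these fits. The mean compared with includes smooth muscle, the highest wall class. Against fibroblasts alone endothelial cells were lower as a sum in MTZ-preventive only, since fibroblasts had 0.97, 0.95, 0.98 and 1.05 times the endothelial level. Among cells under 2000 UMIs they were also lower in the library labelled Healthy, at 13811 against 13979 CPM, but not in AS or MTZ-treated. Of the 67 genes, 24, 24, 30 and 46 were lowest in endothelial cells among the wall classes. The share of all genes lowest there was not counted, so these numbers have no background to be read against.

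Adipocyte-marker cells were compared with the mean of the 3 wall classes in a fit that admitted sums of at least 10 cells, since only AS and MTZ-preventive held 20 or more. Of the 67 genes, 54 were higher and 1 lower by edgeR, against 16.4% and 20.6% of the 12097 genes tested. The higher genes were 32 of 38 in complex I, 4 of 4 in complex II, 6 of 8 in complex III and 12 of 17 in complex V. The median log2 fold change was 0.74, while that of all genes was −0.14, a difference of 0.89. Some markers of brown fat were high in the same cells, with Cidea higher by 5.26 and the uncoupling protein Ucp1 by 4.15 on the log2 scale (2 of 3 tested genes of that list). Prdm16 was the other, at −0.62, and did not pass (edgeR adjusted p = 0.119). Dio2, Elovl3 and Otop1 of the list were not among the genes tested. The mitochondrial share of UMIs was 6.30% in AS and 5.87% in MTZ-preventive. The part of brown fat in the result was not tested. The count was 33 without AS, 30 without MTZ-preventive and 29 in cells under 2000 UMIs. Of all genes tested, 1771 of 14064, 828 of 10805 and 694 of 8632 were higher in these fits.

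Complex III gave the largest median of the 4 complexes here, 0.95. Uqcr10, a small subunit of complex III, was at 1191 CPM in AS and 800.5 CPM in MTZ-preventive adipocyte-marker cells, and at 1099 and 1313 CPM in the 11 and 18 cells of the library labelled Healthy and of MTZ-treated, against 226 to 617 CPM in the wall classes (log2 fold change 1.64 ± 0.17, edgeR adjusted p = 1.73e-11). The classes did not overlap. Uqcrfs1 was at 411 and 304 CPM in AS and MTZ-preventive and at 366 and 563 CPM in the small groups of cells, against 94.5 to 185 CPM in the wall (1.54 ± 0.19, edgeR adjusted p = 2.06e-09). Uqcr11 (1.38 ± 0.16, adjusted p = 8.66e-10) and Uqcrq (1.31 ± 0.17, adjusted p = 1.56e-08), further small subunits, were higher too, while Uqcrc2 (0.45 ± 0.22, adjusted p = 0.102) and the hinge protein Uqcrh (0.29 ± 0.19, adjusted p = 0.262) did not pass.

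Outside complex III, Sdha was higher by 1.28 ± 0.18 (adjusted p = 8.48e-08). Ndufa11 (−0.08 ± 0.21, adjusted p = 0.819) and Atp5j, coupling factor 6 of complex V (−0.02 ± 0.19, adjusted p = 0.954), did not pass the test.

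B cells had the lowest summed level of the tested classes. Against the mean of the wall classes 50 of the 67 genes were lower and none higher by edgeR, where 38.6% of all genes were lower and 31.5% higher. At an unadjusted p under 0.05 edgeR had 1 gene higher, and DESeq2 called 1, while 4 were called higher without the MTZ-treated library. DESeq2 called 3316 of all 13213 genes higher, and the fit without MTZ-treated 4854 of 13585. The lower genes were 32 of 38 in complex I, 4 of 4 in complex II, 5 of 8 in complex III and 9 of 17 in complex V. The median log2 fold change was −0.85, with −1.08 in complex I and −0.47 in complex V, beside −0.19 over all genes. Ndufc1, a small accessory subunit of complex I, was at 27.1, 55.6 and 35.1 CPM in B cells of the library labelled Healthy, MTZ-treated and MTZ-preventive, against 98.1 to 395 CPM in the wall (−2.05 ± 0.21, edgeR adjusted p = 1.28e-10). Ndufa5 (−1.98 ± 0.25, adjusted p = 1.77e-08), Uqcr11 (−1.85 ± 0.19, adjusted p = 2.91e-10) and Atp5j (−1.84 ± 0.21, adjusted p = 1.26e-09) followed, and none of their B cell values reached the wall values. By contrast Uqcrh was at 645, 850.1 and 629 CPM in B cells, where endothelial cells had 525 to 787 CPM, and at 0.39 ± 0.18 did not pass (adjusted p = 0.0534), nor did Atp5a1, the alpha subunit of complex V, at 0.25 ± 0.17 (adjusted p = 0.19).

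Few of the 67 genes were called between macrophages and the wall classes. The comparison has little power, since in simulated counts it called 26% of genes raised 2-fold and 26% of those lowered 2-fold. A gene not called may still differ. By edgeR 10 of the 67 genes were lower and none higher, against 10.1% and 7.51% of all genes, and the share called lower lies near the background. At an unadjusted p under 0.05 there was 1 higher gene, and DESeq2 called 1. The median log2 fold change was −0.30, while that of all genes was −0.38. The lower genes were 8 of complex I, Uqcr10 of complex III and Atp5j of complex V. Ndufa4 was among them, at 117, 450 and 355 CPM in macrophages of the library labelled Healthy, AS and MTZ-treated, against 456 to 1167 CPM in the wall (−1.27 ± 0.23, edgeR adjusted p = 0.000113). Ndufa5 was at 0, 134 and 147 CPM (−1.13 ± 0.29, adjusted p = 0.00455), with no UMI in the 25 macrophages of the library labelled Healthy, which allows up to 71.8 CPM at the upper exact Poisson limit. Atp5j (−0.86 ± 0.21, adjusted p = 0.00285) and Ndufa11 (−0.79 ± 0.25, adjusted p = 0.0218) were the others named by the rule. The count was 3 without the library block, 4 with at least 4 markers per cell, 4 without the library labelled Healthy, 4 without MTZ-preventive and 5 without AS. Of all genes tested, 1285 of 13213, 1239 of 13043, 1142 of 12880, 1172 of 10480 and 1017 of 13840 were lower in these fits.

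**Figure D2:**
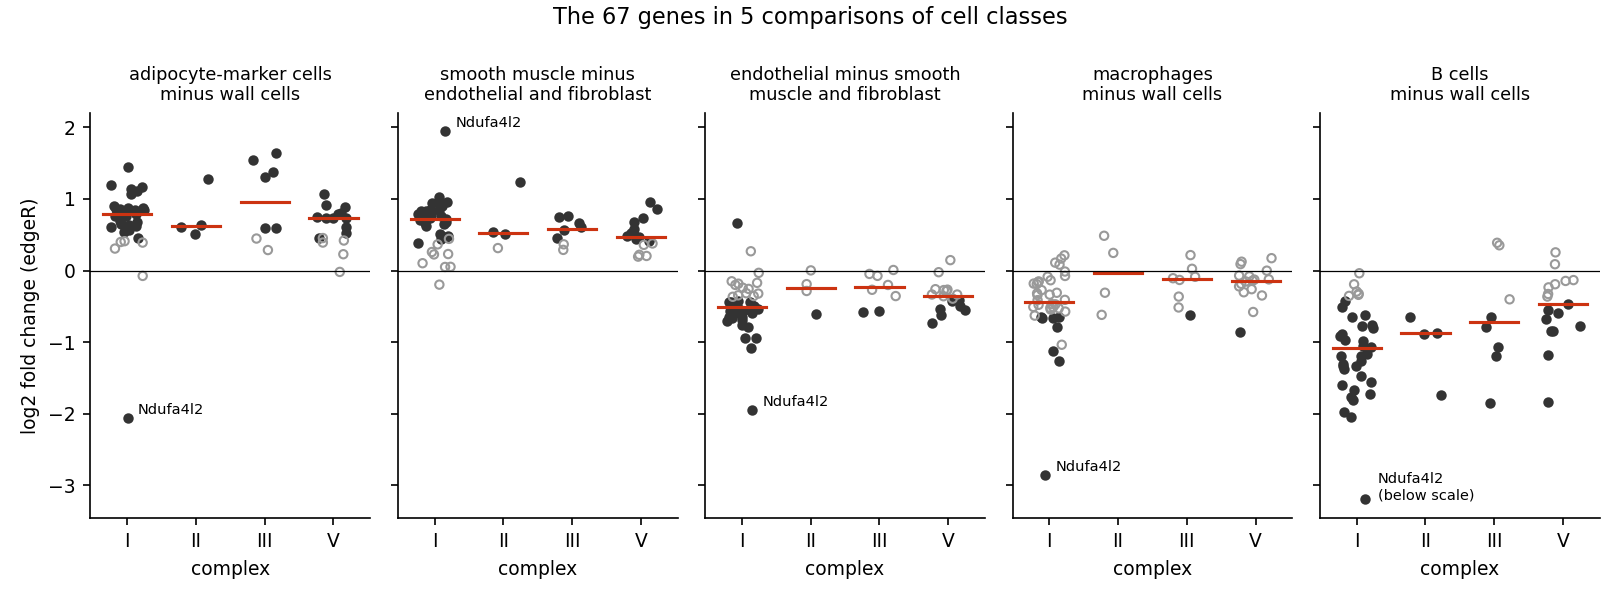
Log2 fold change from edgeR (vertical axis) of each of the 67 genes in 5 comparisons of cell classes, by complex, with filled circles for adjusted p under 0.05, open circles for the rest and a bar at the median. Nearly all genes lie above 0 in adipocyte-marker and smooth muscle cells and below 0 in B cells. Ndufa4l2 in B cells lies below the scale and is drawn at the lower edge, and its B cell and macrophage values rest on few UMIs.

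Ndufa4l2 stood apart from the other 66 genes. It is a paralog of Ndufa4 and is known to be induced in low oxygen. In smooth muscle cells it was at 154, 223, 185 and 116 CPM, against 23.0 to 33.7 CPM in endothelial cells, and at 145, 34.8, 58.8 and 32.0 CPM in fibroblasts. Endothelial cells did not overlap with smooth muscle, and fibroblasts overlapped through the library labelled Healthy alone. The log2 fold change in smooth muscle was 1.94 ± 0.28 (edgeR adjusted p = 4.26e-05), in endothelial cells −1.95 ± 0.32 (adjusted p = 0.000154) and in adipocyte-marker cells −2.06 ± 0.54 (adjusted p = 0.00483). In adipocyte-marker cells the AS and MTZ-preventive levels were 20.9 and 5.15 CPM. B cells held 3, 0 and 5 UMIs of Ndufa4l2 in 3 libraries and macrophages 1, 4 and 0, so that their fitted values rest on few molecules and are not read as folds. In fibroblasts the summed level of 8 pericyte markers, chosen after the values were seen, was 329, 297, 280 and 308 CPM, with at most 1 of them at 0, and that of the 8 smooth muscle markers 501.5, 385, 526 and 384 CPM. Single pericyte markers varied more in the same fibroblasts. Kcnj8 was at 40.7, 99.9, 54.4 and 101.4 CPM and Rgs5 at 47.6, 29.0, 57.9 and 38.8 CPM. Cox4i2, a gene of complex IV, was at 17.1, 27.5, 36.8 and 7.22 CPM there. In smooth muscle cells the 8 pericyte markers summed to more, at 1797, 1005, 1221 and 1659 CPM. The part of pericytes and smooth muscle cells in the fibroblast values of Ndufa4l2 was not tested. Nor was the part of pericytes in its smooth muscle values.

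Ndufa4 was highest in adipocyte-marker cells and low in B cells and macrophages. It was at 709, 820.1, 1167 and 701 CPM in smooth muscle, 552, 663, 825 and 526 CPM in endothelial cells and 456, 579, 639 and 554 CPM in fibroblasts. The smooth muscle value was the highest of the wall classes in each library, with a log2 fold change of 0.51 ± 0.17 (edgeR adjusted p = 0.0179). In adipocyte-marker cells Ndufa4 reached 1419 CPM in AS and 1135 CPM in MTZ-preventive (1.11 ± 0.18, adjusted p = 1.2e-06). B cells had 154, 326 and 205 CPM (−1.38 ± 0.21, adjusted p = 7.53e-07). Macrophages, where 57 of the 67 genes were not called, had Ndufa4 among the 10 lower genes.

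**Figure D3:**
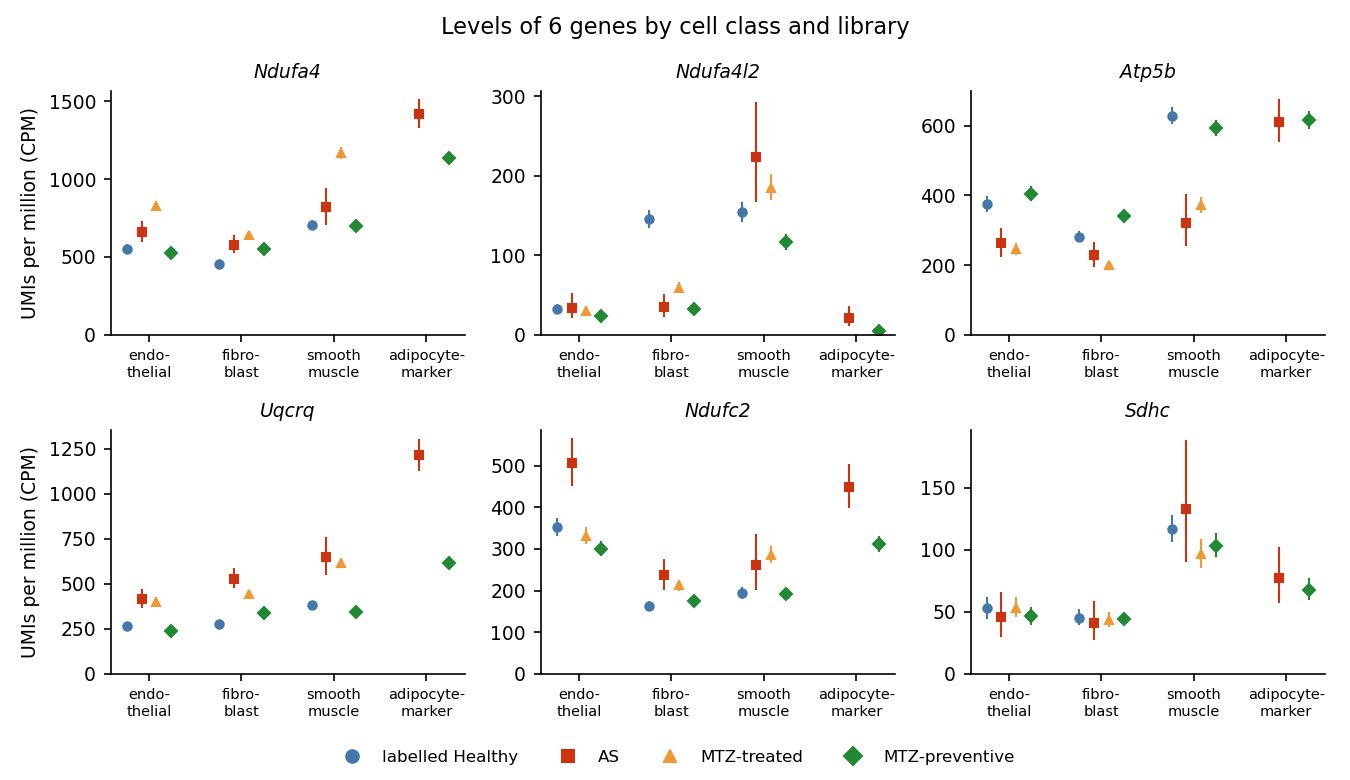
Levels (CPM, linear axes from 0) of Ndufa4, Ndufa4l2, Atp5b, Uqcrq, Ndufc2 and Sdhc in the wall classes and in adipocyte-marker cells, with a symbol for each library and 95% exact Poisson intervals for counting error. Ndufa4l2 and Sdhc are highest in smooth muscle, Ndufc2 in endothelial cells among the wall classes, and Uqcrq in adipocyte-marker cells of the AS library, while Atp5b is lower in AS and MTZ-treated than in the other libraries within each wall class.

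The c subunit, the rotating ring of the ATP synthase, is encoded by Atp5g1, Atp5g2 and Atp5g3, which differ in their leader peptides and give the same mature protein. Classes differed in which gene the UMIs came from. Atp5g3 gave 57.5%, 55.5%, 58.6% and 58.5% of the UMIs of the 3 genes in smooth muscle cells, against 45.3% to 50.7% in endothelial cells and 45.7% to 48.3% in fibroblasts, with no overlap. In adipocyte-marker cells it gave 61.9% in AS and 57.3% in MTZ-preventive. In B cells Atp5g2 gave the larger share, with 52.8%, 50.6% and 48.3% in 3 libraries, where Atp5g3 gave 36.6%, 36.1% and 39.9%. In T cells of the library labelled Healthy, MTZ-treated and MTZ-preventive Atp5g2 gave 54.6%, 35.6% and 50.8%. Atp5g3 gave 32.1%, 47.3% and 36.0% there, so the larger share in T cells changed between libraries. Atp5g1 was the smallest share in each of these classes, at 15.1% to 19.9% in fibroblasts and 10.9% to 13.2% in endothelial cells. By level, Atp5g3 was higher in smooth muscle (log2 fold change 0.86 ± 0.17, edgeR adjusted p = 9.93e-05) and lower in B cells (−0.85 ± 0.20, adjusted p = 0.000403), whereas Atp5g2 passed in neither, at 0.19 ± 0.19 (adjusted p = 0.456) and 0.09 ± 0.21 (adjusted p = 0.716). The shares themselves were not tested between classes.

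**Figure D4:**
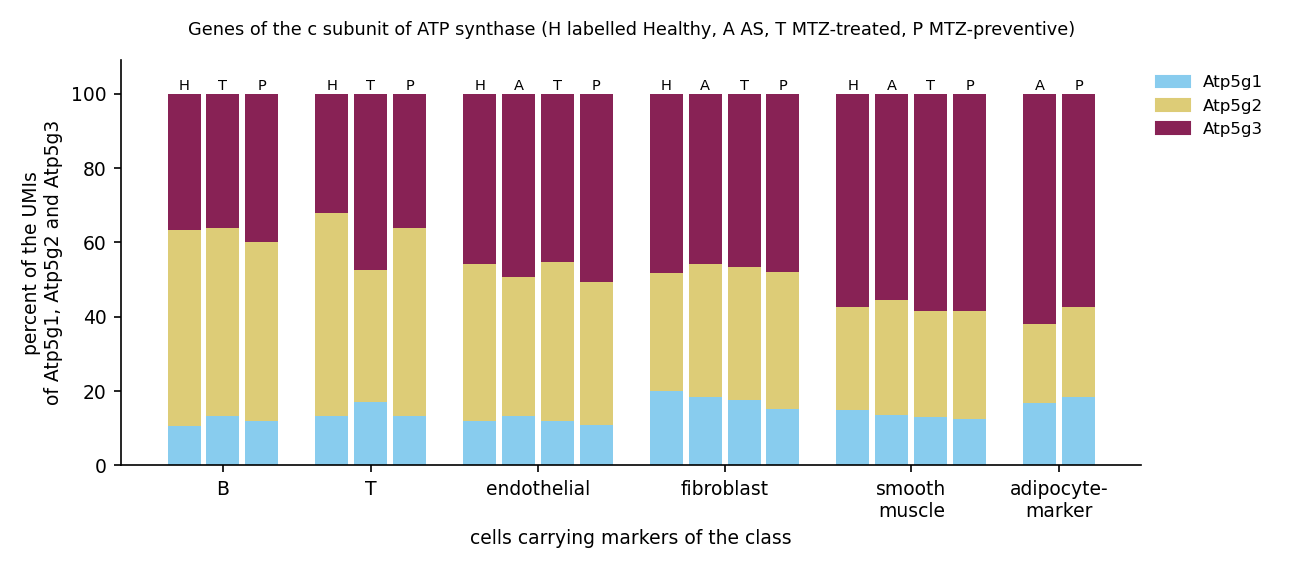
Share of the UMIs of Atp5g1, Atp5g2 and Atp5g3 (percent, stacked bars from 0 to 100) in each class and library with at least 20 cells. Atp5g3 takes 55.5% to 58.6% in smooth muscle cells and 36.1% to 39.9% in B cells, where Atp5g2 is the larger part. In T cells Atp5g2 is the larger part in the library labelled Healthy and MTZ-preventive, but not in MTZ-treated.

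Other genes of energy metabolism were counted in the same fits, from lists chosen with results of these data known, which are therefore descriptions. In smooth muscle cells, where 18.1% of all genes were higher and 18.2% lower, 10 of 15 tested nuclear genes of complex IV were higher and Cox8b was lower, and 11 of the 13 mitochondrially encoded genes, 12 of 13 TCA cycle genes, 9 of 14 glycolysis genes, 3 of 8 complex I assembly factors and all of Ndufab1, Cyc1 and Cycs were higher. The median log2 fold changes of the first 3 lists were 0.66, 0.75 and 0.76. In adipocyte-marker cells, where 16.4% of all genes were higher and 20.6% lower, 11 of 14 genes of complex IV were higher and Cox4i2 lower, together with 12 of 13 mitochondrially encoded genes, 11 of 13 TCA cycle genes, 1 of 8 assembly factors and 4 of 14 glycolysis genes higher and 3 lower, and the medians of the first 3 lists were 0.91, 0.97 and 0.91. In endothelial cells, where 20.3% of all genes were lower and 19% higher, 6 of 15 complex IV genes, 4 of 13 mitochondrially encoded, 5 of 13 TCA cycle and 2 of 8 assembly genes were lower, and 4 of 14 glycolysis genes were lower and 2 higher.

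In B cells, where 38.6% of all genes were lower and 31.5% higher, 12 of 15 complex IV genes, 5 of 13 TCA cycle genes and 5 of 8 assembly factors were lower, while none of the 13 mitochondrially encoded genes passed in either direction. Of 6 tested genes on a list of regulators, 5 were higher in B cells, against the same 31.5% of all genes, namely Yy1 (log2 fold change 1.20, edgeR adjusted p = 7.28e-07), the coactivator Ppargc1b (1.29, adjusted p = 0.000699), Nrf1 (1.18, adjusted p = 1.08e-05), Tfam, which maintains mitochondrial DNA (1.10, adjusted p = 1.4e-05), and Gabpa (0.75, adjusted p = 0.00134). In adipocyte-marker cells 2 of 7 regulators were higher and none lower, against 16.4% and 20.6% of all genes. The coactivator Ppargc1a was higher by 2.52 (edgeR adjusted p = 0.000115) and Ppargc1b by 1.85 (adjusted p = 2.27e-05). Nrf1, Gabpa, Esrra, Tfam and Yy1 did not pass. In smooth muscle 2 of 6 tested regulators were higher and none lower, against 18.1% and 18.2% of all genes. Ppargc1b was higher by 2.02 (edgeR adjusted p = 6.38e-07) and Esrra, an estrogen-related receptor, by 0.57 (adjusted p = 0.0122). In macrophages 5 of 14 glycolysis genes were higher and none lower, against 7.51% and 10.1% of all genes.

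Between libraries the summed level of the 67 genes differed in the wall classes by less than 1.5-fold. From the library labelled Healthy to AS the log2 ratio of their summed CPM was 0.24 (0.21 to 0.27, exact 95% interval for counting error) in endothelial cells, 0.20 (0.17 to 0.23) in fibroblasts and 0.26 (0.22 to 0.30) in smooth muscle. From AS to MTZ-treated it was 0.16 (0.13 to 0.19), 0.20 (0.17 to 0.23) and 0.27 (0.23 to 0.30). From AS to MTZ-preventive it was −0.33 (−0.36 to −0.30), −0.18 (−0.21 to −0.15) and −0.31 (−0.35 to −0.27), and in adipocyte-marker cells −0.40 (−0.43 to −0.38). In these same adipocyte-marker cells the summed brown fat list was at 326 CPM in AS and 104 CPM in MTZ-preventive, a log2 ratio of −1.65 (−1.90 to −1.39), and that of ribosomal protein genes was 0.54, and their part in the result was not tested. The intervals are narrower than the effect of the cell filter, since the smooth muscle ratio from the library labelled Healthy to AS was 0.11 under a looser filter and 0.43 in cells under 2000 UMIs, the endothelial one 0.42 and the smooth muscle ratio from AS to MTZ-treated 0.46 in the latter cells. The fibroblast ratio from the library labelled Healthy to AS was 0.31 and the smooth muscle ratio from AS to MTZ-preventive −0.19 under the looser filter. With TMM factors the endothelial and fibroblast ratios from AS to MTZ-treated were 0.26 and 0.30, and with totals free of mitochondrial, ribosomal protein and hemoglobin genes the fibroblast ratio from AS to MTZ-preventive was −0.11. The order MTZ-treated above AS above the remaining libraries held in each wall class, and the MTZ-treated and MTZ-preventive libraries thus lay on opposite sides of AS. All 3 comparisons share the AS library, which is the shallowest, and none has a replicate library.

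By complex, the ratio of complex I, III and V had the direction of the sum in all 9 comparisons of wall classes. Complex II, the smallest set, had intervals that included 0 in all 9. Complex I in smooth muscle was at 10115, 12370, 15311 and 9843 CPM, and complex II at 460.2, 541, 497 and 477 CPM. Within complex I the 7 core subunits, a split chosen after values were seen, had lower ratios than the 31 others between MTZ-treated and AS. Their log2 ratios were 0.04 (−0.10 to 0.19), −0.01 (−0.14 to 0.12) and −0.02 (−0.19 to 0.15) in endothelial cells, fibroblasts and smooth muscle, and those of the others 0.12 (0.08 to 0.17), 0.23 (0.19 to 0.27) and 0.34 (0.29 to 0.40). From AS to MTZ-preventive the core subunits were at −0.12 (−0.26 to 0.02), −0.06 (−0.19 to 0.07) and −0.23 (−0.39 to −0.06) and the others at −0.42, −0.23 and −0.34. From the library labelled Healthy to AS the core subunits were not the lower set in each class, with 0.25, 0.30 and 0.41 against 0.30, 0.18 and 0.28.

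The 13 mitochondrially encoded genes had the direction of the nuclear sum only in endothelial cells, and there not in MTZ-treated against AS. From AS to MTZ-treated their log2 ratio was −0.99 in endothelial cells, −0.65 in fibroblasts and −0.26 in smooth muscle, where the nuclear sum was higher. From AS to MTZ-preventive it was −0.08, 0.25 and 0.28, and from the library labelled Healthy to AS 0.43, −0.00 and −0.32. Genes of ribosomal proteins, read for comparison because they are short and abundant too, had log2 ratios of 0.40, 0.15 and 0.10 from AS to MTZ-treated, of 0.21, 0.31 and −0.01 from AS to MTZ-preventive and of −0.08, 0.14 and 0.21 from the library labelled Healthy to AS. They moved with the 67 genes in each wall class of MTZ-treated against AS. In AS against the library labelled Healthy they did so in fibroblasts and smooth muscle, but not in endothelial cells. They moved against the 67 genes in endothelial cells and fibroblasts of MTZ-preventive, with an interval that included 0 in smooth muscle. What part RNA quality or depth has in these ratios was not tested.

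**Figure D5:**
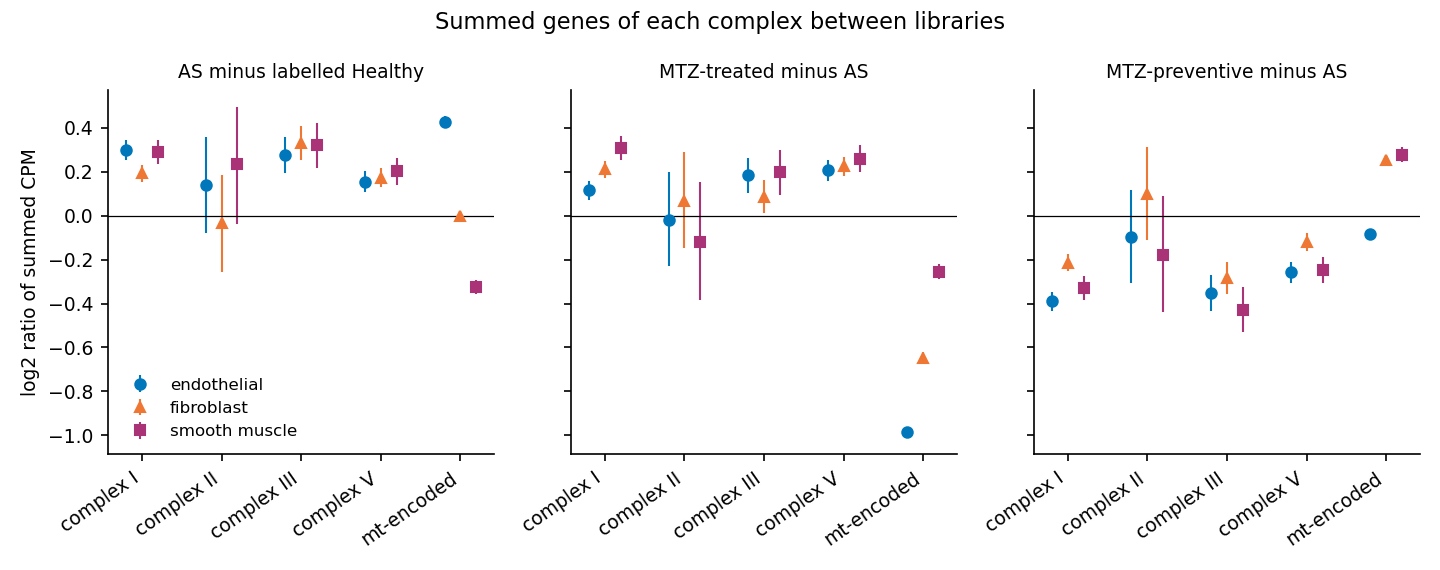
Log2 ratio of the summed CPM of each complex, and of the 13 mitochondrially encoded genes, between libraries in 3 wall classes (vertical axis), with 95% intervals that cover counting error only. Complexes I, III and V lie above 0 in AS against the library labelled Healthy and in MTZ-treated against AS and below 0 in MTZ-preventive against AS. The mitochondrially encoded genes share that direction only in endothelial cells, and there not in MTZ-treated against AS.

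Gene by gene, the shift from the library labelled Healthy to AS was spread over many genes. Among genes with a mean of at least 100 CPM, the log2 ratio was above 0 for 44 of 52 in endothelial cells, 43 of 54 in fibroblasts and 51 of 61 in smooth muscle, with medians of 0.24, 0.24 and 0.30 against −0.04, 0.02 and 0.01 for all such genes. Past 1.5-fold higher were 7, 2 and 6 of them, where the shares over all such genes were 8.16%, 9.63% and 11.5%. No gene in endothelial cells or fibroblasts was past 1.5-fold lower, against 13.4% in each, and Atp5b alone in smooth muscle, against 16.5%. Among the highest ratios were Ndufa7 at 0.70, Uqcrq at 0.65 and Ndufa5 at 0.62 in endothelial cells, Uqcrq at 0.93, Ndufb7 at 0.64 and Atp5g2 at 0.57 in fibroblasts, and Uqcrq at 0.77 and Ndufa6 at 0.68 in smooth muscle. At the low end stood Atp5b at −0.51 and Atp5c1, the gamma subunit, at −0.34 in endothelial cells with Uqcrc1 at −0.10. In fibroblasts Ndufb11 at −0.32, Atp5b at −0.30 and Ndufs6 at −0.29 were lowest, and in smooth muscle Atp5b at −0.97 (−1.32 to −0.63), Ndufb2 at −0.28 and Uqcrc2 at −0.28.

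From AS to MTZ-treated the medians were 0.15, 0.20 and 0.25 in endothelial cells, fibroblasts and smooth muscle, against 0.12, 0.11 and 0.10 for all genes at that level. The ratio was above 0 for 35 of 52, 43 of 54 and 46 of 61 genes. Past 1.5-fold higher were Atp5g2 in endothelial cells, Ndufb11 in fibroblasts and 6 genes in smooth muscle, against 10.2%, 10.5% and 12.4% of all genes. Past 1.5-fold lower were Ndufc2 in endothelial cells and no gene in fibroblasts, against 8.02% and 6.26% of all genes, and 1 gene in smooth muscle, against 7.77%. The highest were Atp5g2 at 0.60, Uqcrh at 0.58 and Ndufs8 at 0.56 in endothelial cells, Ndufb11 at 0.60, Ndufa11 at 0.52 and Ndufa5 at 0.48 in fibroblasts, and Ndufb2 at 0.81, Ndufc1 at 0.77 and Ndufa11 at 0.76 in smooth muscle. Among the lowest were Ndufc2 at −0.61, Sdhb at −0.30 and Uqcr10 at −0.24 in endothelial cells, Ndufb1-ps at −0.29, Atp5a1 at −0.28 and Ndufv1 at −0.28 in fibroblasts, and Sdhc at −0.47 and Ndufv1 at −0.39 in smooth muscle.

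From AS to MTZ-preventive the log2 ratio was above 0 for 7 of 52 genes in endothelial cells, 14 of 54 in fibroblasts, 9 of 61 in smooth muscle and 5 of 62 in adipocyte-marker cells. The medians were −0.33, −0.15 and −0.34 in endothelial cells, fibroblasts and smooth muscle and −0.36 in adipocyte-marker cells, against 0.06, 0.02, 0.04 and −0.01 for all genes at that level. Past 1.5-fold lower were 12 of 52, 6 of 54, 12 of 61 and 17 of 62 genes, against 6.89%, 7.64%, 9.35% and 12.5%. Past 1.5-fold higher was Atp5b alone in endothelial cells and in smooth muscle, and no gene in the other classes, against 10.6%, 14.5%, 9.47% and 14%. The lowest were Atp5md at −1.0, Ndufa1 at −0.86 and Uqcrq at −0.81 in endothelial cells, Ndufb1-ps at −0.84, Ndufa1 at −0.72 and Atp5mpl at −0.67 in fibroblasts, Atp5k at −1.36, Ndufb1-ps at −1.08 and Ndufa4l2 at −0.94 in smooth muscle, and Atp5k at −1.39, Uqcrq at −0.98 and Ndufa1 at −0.98 in adipocyte-marker cells. At the high end stood Atp5b at 0.62, Atp5c1 at 0.30 and Uqcrc1 at 0.19 in endothelial cells, Atp5b at 0.57, Uqcrc1 at 0.39 and Atp5c1 at 0.31 in fibroblasts, and Atp5b at 0.88, Uqcrfs1 at 0.57 and Uqcrc2 at 0.34 in smooth muscle.

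Atp5b ran against the sum in endothelial cells and fibroblasts in all 3 comparisons, and in smooth muscle in all but MTZ-treated against AS. It was at 629, 322, 371 and 593 CPM in smooth muscle, at 376, 263, 246 and 405 CPM in endothelial cells and at 281, 229, 199.7 and 341 CPM in fibroblasts. In each class AS and MTZ-treated lay below the other libraries. Uqcrq, a small subunit of complex III, showed the reverse order, with 379.9, 648, 614 and 343 CPM in smooth muscle, 264, 413, 401 and 236 CPM in endothelial cells and 278, 529, 442 and 339 CPM in fibroblasts. Ndufa1, a small accessory subunit of complex I, was at 257, 386, 381 and 219 CPM in smooth muscle and at 579.6 and 295 CPM in AS and MTZ-preventive adipocyte-marker cells.

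RNA of other cell types was present in the wall classes. Over the wall classes the 8 adipocyte markers summed to 42.5 to 170.1 CPM labelled Healthy, and to 207 to 356 CPM for AS, 74.2 to 95.9 CPM for MTZ-treated and 183 to 287 CPM for MTZ-preventive. All 8 markers were above 0 except in smooth muscle of the library labelled Healthy, where 2 were at 0. In wall cells without any UMI of these markers the log2 ratio of the 67 genes from AS to MTZ-preventive was −0.32, −0.19 and −0.29 in endothelial cells, fibroblasts and smooth muscle, and from the library labelled Healthy to AS it was 0.28, 0.19 and 0.28. Such cells can still hold other RNA of adipocytes, so these ratios cannot tell what part it has. The 8 neutrophil markers summed to 277, 306 and 193 CPM in endothelial cells, fibroblasts and smooth muscle of AS, with 0, 2 and 4 of them at 0, against 2.63 to 31.1 CPM elsewhere. The 8 B cell markers summed to 102 to 254 CPM labelled Healthy and 53.9 to 83.3 CPM for MTZ-preventive, with none at 0, against 7.80 to 29.0 CPM in the wall classes of AS and MTZ-treated, with up to 3 at 0. The part of adipocyte, neutrophil and B cell RNA in the ratios between libraries was not tested.

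Macrophages, with 25 cells in the library labelled Healthy, gave wide intervals. Their log2 ratio of the 67 genes was 0.47 (0.34 to 0.59) from that library to AS and 0.18 (0.12 to 0.25) from AS to MTZ-treated. In the first comparison 23 of 52 genes were past 1.5-fold higher and none lower, against 38.7% and 23% of all genes. In the second 7 were higher and 1 lower, against 17.6% and 13.2%.

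Summed over all kept cells, whose classes differ in number between the libraries, the ratio from the library labelled Healthy to AS was 0.60 (0.59 to 0.61), above that of any wall class. Past 1.5-fold higher were 32 of 57 genes and none was past 1.5-fold lower, against 25.5% and 21.7% of all genes. The highest were Uqcrq at 1.37, Uqcr11 at 1.33 and Uqcr10 at 1.23, the small complex III subunits that were also high in adipocyte-marker cells. From AS to MTZ-treated the ratio was 0.14, with Ndufa11 past 1.5-fold higher and 1 gene past 1.5-fold lower (16.2% and 9.35% of all genes). From AS to MTZ-preventive it was −0.36, with 16 of 57 genes past 1.5-fold lower and none higher (9.05% and 14.1% of all genes). The median log2 ratios of the 57 genes were 0.60, 0.16 and −0.36 in that order, against 0.08, 0.20 and 0.05 for all genes at that level. By this measure the 57 genes rose less than the background from AS to MTZ-treated. Adipocyte-marker cells made up 293 of the 2160 AS cells and 11 of the 11121 cells of the library labelled Healthy. B cells and T cells made up 4 and 8 of the AS cells, and 2960 and 1866 of the cells labelled Healthy. Both classes had low summed levels of the respiratory complex genes, and Uqcr11 was also lower in B cells than in the wall classes. What part the makeup of the libraries has in these ratios was not tested.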

How the data were processed

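The authors counted UMIs with Cell Ranger 5.0.0 on mm10 (STAR is also in the submitters' processing notes) and deposited raw counts per gene and barcode for 4 gene expression libraries made with a 5′ kit. The 8 receptor libraries were not used here. Counts of the 38 symbols that stand on more than 1 line were summed. Depth was 7617682 to 50769911 UMIs per deposited library and 3765580 to 33332255 UMIs in kept cells, so that a count of 0 in all kept cells allows up to 0.797 CPM (3 counts) in AS and 0.0900 CPM in MTZ-preventive. Kept cells had more than 200 genes and 1000 UMIs, log10 genes over log10 UMIs above 0.7, under 10% mitochondrial and under 5% hemoglobin UMIs, and doublets were called by simulation at 0.8% per 1000 cells, which removed 1218, 39, 416 and 2130. A class needed at least 3 of its 8 markers with a UMI and at least 2 more than any other class. Cells with exactly 3 markers of their class numbered 1057, 221, 583 and 1585. No cluster annotation of the authors was used, and lymphatic endothelial cells fall in the endothelial class.

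Counts were summed by class and library and scaled to 1e+06 (CPM). Class comparisons used edgeR 4.0.16 (quasi-likelihood, TMM, filterByExpr, library as block) in R 4.3.3 over all genes with Benjamini-Hochberg adjustment, on 21 sums of at least 20 cells (13213 genes, 12 residual degrees of freedom). The adipocyte comparison used 28 sums of at least 10 cells (12097 genes, 17 degrees), a change made after the numbers of cells were seen. DESeq2 1.42.0 was an alternative. Ratios between libraries carry exact conditional binomial 95% intervals, levels exact Poisson intervals, and both cover counting error only. Python 3.11.15 with numpy 2.4.6, scipy 1.17.1 and pandas 2.3.3 was used. In data simulated without differences between libraries other than depth, 50 genes per fold, with counts above the median, were changed in the class compared. Of those raised 2-fold, 96% were called for smooth muscle (12497 genes), 26% for macrophages (12496 genes) and 70% for adipocyte-marker cells (11124 genes). Of those lowered 2-fold, 90%, 26% and 58% were called. For the intervals counts were drawn as Poisson, and 95.7% of intervals over 5422 genes held the true ratio. The intervals are built for such counts, so this check covers counting error alone.

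The genes named were the 5 highest and 5 lowest called per class comparison, the 3 highest and 3 lowest per library comparison among those with a mean of at least 100 CPM, and Ndufa4, Ndufa4l2, Atp5g1, Atp5g2, Atp5g3, Sdha to Sdhd, Uqcrc1, Uqcrc2, Uqcrfs1 and Atp5b. The named genes, lists and markers were chosen with earlier results of these data known, while the 67 genes were taken by symbol alone. Genes named to show an absence of a call, and the regulators, were picked after their values were seen. Some results of the named-gene rule are not reported here.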

Additional observations from a re-analysis of the deposited data

Results flagged for a closer look

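Ndufa4l2 went opposite ways in different classes of cells from the library labelled Healthy to AS. Its log2 ratio was 0.54 in smooth muscle cells and −2.06 in fibroblasts, a difference of 2.6 that was not tested, since each class has 1 library per condition.

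Of 138 groups of 4 libraries examined, 4 held a library whose gap to the nearest other, as a share of the range, was above Dixon's 95% critical value for 4 samples, and chance alone gives about 1 in 20. Uqcrh in MTZ-treated was such a value in endothelial cells (gap 0.93, 787 CPM against 525 to 543 CPM) and in fibroblasts (gap 0.896, 659 CPM against 488 to 506 CPM). Atp5g2 was 894 CPM in MTZ-treated endothelial cells against 534 to 595 CPM (gap 0.832). Sdhd was 129 CPM in AS smooth muscle cells against 73.0 to 82.4 CPM (gap 0.831), where the AS value rests on 30 UMIs in 108 cells.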

How the results depend on the processing

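The 9 log2 ratios of the summed genes between libraries of a wall class kept their sign under all 7 alternatives, of which the cells under 2000 UMIs were added after seeing the data, as were plain totals and sums of at least 10 cells for the class comparisons. Ratios that left the counting interval are given in the order endothelial, fibroblast, smooth muscle where all 3 did. From the library labelled Healthy to AS they were 0.32, 0.29 and 0.20 with TMM factors and 0.42, 0.27 and 0.43 in cells under 2000 UMIs, with 0.31 in fibroblasts and 0.11 in smooth muscle under the looser cell filter and 0.28 in endothelial cells without an adipocyte-marker UMI. From AS to MTZ-treated they were 0.26, 0.30 and 0.39 with TMM factors and 0.20, 0.23 and 0.36 under the looser filter, with 0.13 in endothelial and 0.46 in smooth muscle cells under 2000 UMIs and 0.21 in endothelial cells with a total free of mitochondrial, ribosomal protein and hemoglobin genes. From AS to MTZ-preventive they were −0.28, −0.15 and −0.19 under the looser filter, −0.15 in fibroblasts and −0.23 in smooth muscle with TMM factors, −0.38 in endothelial cells and −0.22 in fibroblasts under 2000 UMIs, and −0.29 in endothelial cells and −0.11 in fibroblasts with the reduced total. The cause was not tested.

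Of the class comparisons, the 50 lower genes in B cells stayed within 1.5 times under every alternative, with 41 to 51 when a library was left out. The 50 higher genes in smooth muscle became 23 in cells under 2000 UMIs and 32 to 48 with a library left out. The 54 higher genes in adipocyte-marker cells became 29 in cells under 2000 UMIs and 30 to 57 with a library left out. The 34 lower genes in endothelial cells became 54 with DESeq2, 17 without the library block, 21 in cells under 2000 UMIs and 14 to 33 with a library left out. The 10 lower genes in macrophages became 5 with sums of at least 10 cells, 4 with at least 4 markers, 3 without the block, 5 without the low-count filter and 4 to 9 with a library left out. With plain totals in place of TMM factors the median log2 fold change of all genes moved by over 0.1 in the adipocyte comparison (−0.38), the B cell comparison (−0.50) and the endothelial comparison (0.11), and the median of the 67 genes relative to it was 1.07, −0.57 and −0.40. Fewer cells or sums entered the fits limited by depth, markers or libraries. Fewer of all genes were called in cells under 2000 UMIs too. There 705 of 8852 were higher for smooth muscle, 694 of 8632 higher for adipocyte-marker cells and 1137 of 8852 lower for endothelial cells. The main fits had 2393 of 13213, 1980 of 12097 and 2683 of 13213. The adipocyte comparison under the looser cell filter and the macrophage comparison in cells under 2000 UMIs could not be fitted. No paired analysis between conditions was possible because each condition has 1 gene expression library. In the class comparisons the library itself was the block. Depth limits the AS library most, whose 108 smooth muscle cells set the width of its intervals.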
